A study of Mus musculus with 2 samples.

Results

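The Ltf class is a group of late neutrophil-lineage cells in mouse bone marrow, taken here as every cell that the authors' annotation places in the class named for lactoferrin (Ltf). It held 271 of 14795 cells: 50 of 6906 in a Control library and 221 of 7889 in a library labelled Runx1 KO. Single-cell RNA was measured with the 10x Genomics 3′ kit in marrow from crushed hind limbs, sorted for cells negative for lineage markers and Sca1 and positive for c-Kit, a gate for progenitors. The mice were C57BL/6. Control pooled the marrow of a Runx1f/f animal and a Runx1f/- animal (1 mouse each). The second of these carried a germline mutation of 1 Runx1 allele, so Control was not a plain wild type. How many mice gave the library labelled Runx1 KO, what drove the deletion, which exons were removed and how old the animals were is not stated in the labels. A label field that speaks of embryos does not match the tissue and extraction fields, which were followed. Runx1 encodes a transcription factor of blood cells, and the series title sets it in the control of cytokine production by neutrophils.

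Neutrophils mature in the marrow from granulocyte-monocyte progenitors through promyelocytes, myelocytes and metamyelocytes to band and segmented cells. Granule proteins are made in a fixed order: primary (azurophil) granules with myeloperoxidase and serine proteases first, secondary (specific) granules with lactoferrin and cathelicidin next, and tertiary granules with gelatinase last. Division stops around the myelocyte stage, while ribosomes and other parts of the synthetic machinery are lost and S100 proteins accumulate in the cytosol.

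Each genotype had 1 library, so genotype, library and animal cannot be told apart and no test between genotypes was made. Levels are in CPM: a class is taken as the sum of its cells, and its unique molecular identifiers (UMIs) are scaled to a total of 1000000. Intervals are exact 95% Poisson intervals for ratios and exact (Clopper-Pearson) 95% binomial intervals for shares. They cover counting error only, not the spread between mice. The ratio intervals treat each UMI as independent, so they also leave out the spread between cells. They are too narrow where few cells hold most of a gene's UMIs. Values given as a pair are Control first and the library labelled Runx1 KO second. The class held 689973 and 2506298 UMIs, with a median of 11545 (range 1789 to 45509) and 9352 (range 1872 to 40835) per cell, against library medians of 21593.5 and 16092. The 5 deepest Control cells gave 25.8% of the Control UMIs, and the 5 deepest cells of the other library gave 7.89%. The libraries shared 13 cell barcodes, 0 of them in the Ltf class.

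The class made up 0.724% of the Control cells (0.538 to 0.953) and 2.80% of the cells in the library labelled Runx1 KO (2.45 to 3.19), a ratio of 3.87 (2.84 to 5.37). Among the cells of the 4 neutrophil-lineage classes (Gstm1/CD63, Gstm1/Ly86, Fcnb and Ltf) it made up 4.32% of 1157 and 16.6% of 1333. Kit, the gene of the receptor used in the sort, had a UMI in 13 of 50 and 17 of 221 cells of the class (26% and 7.69%), at 34.8 and 12.8 CPM. In the Car1 class, named for an erythroid gene, Kit had a UMI in 89.6% and 81.8% of cells, at 174 and 152 CPM. The share of the class therefore concerns cells inside the sorted gate, and how many late neutrophils entered it by their c-Kit protein was not tested.

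Runx1 itself was read in both libraries. It stood at 78.3 CPM in Control (54 UMIs, 23 cells) and 121 CPM in the library labelled Runx1 KO (303 UMIs, 106 cells), 1.54-fold higher in the latter (1.15 to 2.10). In the Fcnb class it stood at 56.1 and 130 CPM, and in the Car1 class at 116 and 310 CPM. A 3′ tag outside the deleted part checks nothing, and where the deletion lies is not stated, so these levels do not settle the label and every direction below rests on it. Why Runx1 was higher in the library labelled Runx1 KO was not tested.

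The 5 markers describe the class but are no independent check of its name, since it is named for Ltf and was assigned on these same cells. S100a8, a subunit of the calcium-binding protein calprotectin, reached 126628 and 118945 CPM in the class and had a UMI in 50 of 50 and 219 of 221 cells. Camp, the precursor of cathelicidin, stood at 45787 and 40220 CPM, with a UMI in 42 of 50 and 160 of 221 cells. Ngp, a neutrophilic granule protein, stood at 27975 and 19281 CPM, in 44 and 158 cells. Ltf stood at 7255 and 6157 CPM, in 39 and 143 cells, so 11 Control cells and 78 cells of the other library carried no UMI of the gene that names the class. Retnlg, a resistin-like secreted protein of late neutrophils, stood at 5016 and 15130 CPM, in 39 and 206 cells. No other class of 20 or more cells came near these levels, as the plot of marker levels by class shows: Ltf reached at most 133 CPM elsewhere, in the Cd74 class of Control, and 21.1 CPM in the Hba-a2 class of the library labelled Runx1 KO. S100a8 and S100a9 together took 26.4% and 26.5% of all UMIs of the class, against 0.226% and 0.145% in the Fcnb class.

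**Figure D1:**
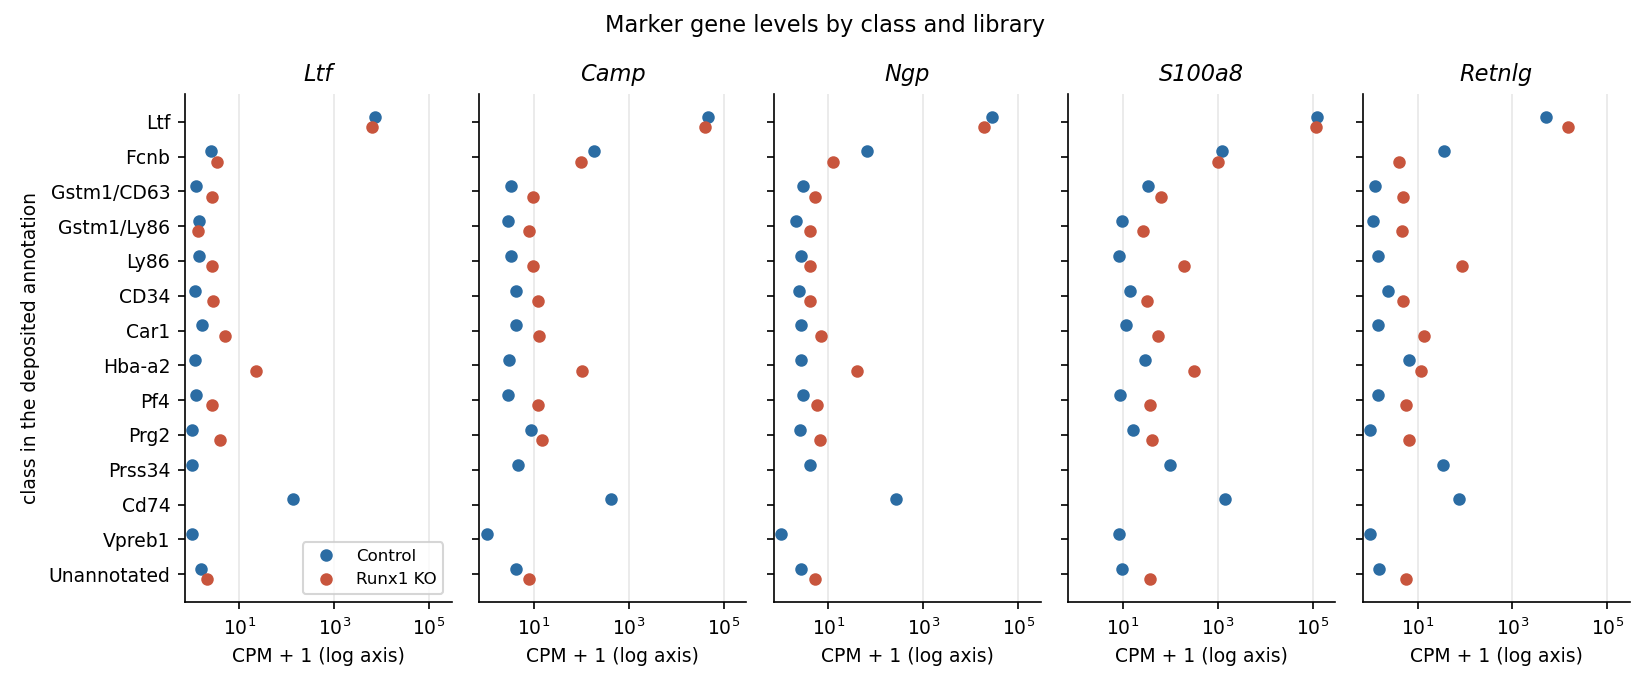
Level of the 5 marker genes in every class of at least 20 cells, 1 panel per gene; the x axis is CPM plus 1 on a log axis, and each point is 1 class in 1 library. The Ltf class stands apart in all panels, for example at 7255 and 6157 CPM for Ltf, and Retnlg stands at 5016 and 15130 CPM there.

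The markers were also found at low levels in cells that should lack them, more so in the library labelled Runx1 KO. In the Car1 class, S100a8 stood at 10.7 and 52.6 CPM and Ltf at 0.601 and 4 CPM. After every cell was thinned to 2000 UMIs, which left out 1 Ltf class cell of each library, S100a8 was seen in 100% of 49 and 98.6% of 220 Ltf class cells and in 2.67% and 7.30% of Car1 class cells. Without thinning it was seen in 16.3% and 38.8% of the Car1 class, whose median depths were 15393.5 and 14621 UMIs. Ltf was seen in 79.6% (65.7 to 89.8) and 61.4% (54.6 to 67.8) of thinned Ltf class cells, and in 0.0905% and 0.300% of thinned Car1 class cells.

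Ltf, Camp and Ngp lie on mouse chromosome 9, and Lcn2, a further abundant secondary granule gene, on chromosome 2. Their upstream sequences are shown because these genes set the class apart from all others. Each is the 250 bases before the RefSeq start site in GRCm38.p6, 5′ to 3′ on the gene's strand, with capitals marking the 8-base string TTGCNNAA, the core of sites bound by C/EBP factors, on either strand. They are Ltf (chr9:111019042-111019291, plus strand), Camp (chr9:109849457-109849706, minus strand), Ngp (chr9:110419558-110419807, plus strand) and Lcn2 (chr2:32387740-32387989, minus strand).
Ltf: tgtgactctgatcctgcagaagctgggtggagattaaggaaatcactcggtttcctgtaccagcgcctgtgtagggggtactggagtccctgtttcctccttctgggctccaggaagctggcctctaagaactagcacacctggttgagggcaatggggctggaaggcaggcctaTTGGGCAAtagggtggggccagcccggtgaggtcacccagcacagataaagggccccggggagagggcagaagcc
Camp: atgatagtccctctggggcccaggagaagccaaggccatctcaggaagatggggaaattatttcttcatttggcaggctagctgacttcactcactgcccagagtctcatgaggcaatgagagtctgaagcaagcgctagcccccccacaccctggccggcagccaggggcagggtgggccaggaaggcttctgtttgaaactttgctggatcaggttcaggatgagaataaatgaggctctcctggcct
Ngp: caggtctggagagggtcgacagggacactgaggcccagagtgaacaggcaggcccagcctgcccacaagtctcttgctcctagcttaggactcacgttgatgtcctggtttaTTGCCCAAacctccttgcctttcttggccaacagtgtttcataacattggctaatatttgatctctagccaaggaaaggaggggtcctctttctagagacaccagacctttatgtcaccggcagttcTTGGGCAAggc
Lcn2: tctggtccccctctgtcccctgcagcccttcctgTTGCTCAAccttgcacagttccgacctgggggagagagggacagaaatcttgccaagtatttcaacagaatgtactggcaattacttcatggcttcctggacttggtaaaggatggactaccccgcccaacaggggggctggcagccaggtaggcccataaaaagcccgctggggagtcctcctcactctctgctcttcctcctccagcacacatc
The string occurred 1 time before Ltf, 2 times before Ngp, 1 time before Lcn2 and 0 times in this window before Camp. Counted per gene, with a match in any of its promoter entries, it was present before 5 of the 9 secondary granule genes with a RefSeq promoter entry. In the same way it was present before 0 of 7 primary granule genes and 4 of 17 late cytosolic and secreted genes. Counted per promoter entry, it was present before 9.56% of all 32851, so the list counts and this share are in unlike units. These are letter matches, which say nothing of binding.

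The Fcnb class, in which primary granule genes took 3.99% and 4.04% of UMIs, was the comparator within each library. Since the classes were assigned on the same cells, what follows describes the class and is not a test. Of 2320 genes measured in Control, 277 were at least 2-fold higher (11.9%) and 674 at least 2-fold lower (29.1%) in the Ltf than in the Fcnb class. In the library labelled Runx1 KO the counts were 298 of 2268 (13.1%) and 776 (34.2%). A gene counted as measured at a mean of 50 CPM and 100 UMIs over both sides, and log2 ratios carry a pseudocount of 10 CPM. A gene near 0 in 1 class thus passed only through its level in the other. Counts of higher or lower genes among measured members of the lists below were therefore partly set in advance. S100a8 and S100a9 take the share of the total given above, and the median gene stood at -0.54 and -0.60, and with median-of-ratios scaling at 0.08 and 0.10. Under that scaling the counts became 499 higher and 219 lower in Control and 545 and 310 in the other library, so the balance of higher and lower genes depends on the scaling.

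Granule genes split by granule type. Of the 9 primary granule genes, 7 were measured and 7 of 7 were at least 2-fold lower in the Ltf class in both libraries, with medians of -3.79 and -4.28. Mpo, the myeloperoxidase gene, stood at 529 and 198 CPM against 7438 and 6772 CPM in the Fcnb class. Elane, neutrophil elastase, stood at 619 and 450 CPM against 11455 and 11152 CPM. All 10 measured secondary granule genes in Control and all 11 in the other library were at least 2-fold higher, with medians of 5.83 and 5.78. Members near 0 in the Fcnb class, such as Ltf, passed the minimum only through the Ltf class, so this count was largely set in advance. The list took 10.0% and 8.78% of the class's UMIs and 0.0807% and 0.0991% in the Fcnb class. Ltf rested on 7 and 18 UMIs in the Fcnb class, and its ratio was 4709 (2284 to 11719) and 2572 (1627 to 4340). Lcn2, the iron-siderophore-binding lipocalin, was 250-fold and 301-fold higher. The 3 measured tertiary granule genes were higher in both libraries, with medians of 5.29 and 5.83, and Mmp9, gelatinase B, stood at 554 and 580 CPM against 4.4 and 0.399 CPM. These directions were the same with median-of-ratios scaling, where the list medians were -3.19 and -3.62 (primary), 6.19 and 6.11 (secondary) and 5.67 and 6.17 (tertiary).

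Fcnb, the gene of ficolin B that names the comparator, was itself higher in the Ltf class. It stood at 525 CPM in the Control Ltf class (362 UMIs, 24 cells) and at 296 CPM in the other library (741 UMIs, 80 cells). In the class bearing its name it stood at 32.4 CPM (54 of 180 cells) and 12.4 CPM (32 of 318 cells). In the other neutrophil-lineage classes it reached at most 1.55 CPM.

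Effector genes were higher in the class and synthesis genes lower. The 7 NADPH oxidase genes, which make superoxide, all lay above the Fcnb class, with medians of 2.05 and 2.17 and 6 of 7 past 2-fold in each library. Cybb, the catalytic subunit, stood at 1384 and 832 CPM against 17.2 and 35.9 CPM. Surface receptor genes had medians of 1.17 (18 measured, 12 higher, 1 lower) and 1.69 (21 measured, 16 higher, 0 lower), and Ly6g, the antigen by which mature neutrophils are commonly stained, stood at 625 and 308 CPM against 0.440 and 0 CPM. Actin cytoskeleton genes had medians of 1.05 and 1.13, with 14 of 26 at least 2-fold higher in both libraries. The 14 measured ribosome biogenesis genes were all at least 2-fold lower (medians -1.61 and -2.00). Cytosolic ribosomal protein genes took 10.5% and 9.93% of UMIs against 33.1% and 33.2% in the Fcnb class. Mitochondrially encoded genes took 1.90% and 1.91% against 5.35% and 5.38%, and endoplasmic reticulum folding genes had medians of -1.70 and -1.91, with 14 of 16 at least 2-fold lower in each library. With median-of-ratios scaling the medians of the ribosome biogenesis and folding lists were -1.08 and -1.15 in Control and -1.43 and -1.27 in the other library, on the same side of 0.

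Genes of mitosis did not follow the synthesis genes. All 20 measured G2 and M phase genes in Control and all 13 in the other library lay above the Fcnb class, with medians of 1.13 and 0.87, while S phase genes had medians of -0.49 and -1.18. With median-of-ratios scaling the S phase medians became 0.05 and -0.53, so their direction in Control depends on the scaling. Mki67, a protein of cycling nuclei, stood at 258 and 178 CPM against 64.3 and 59.1 CPM, with a UMI in 21 of 50 and 77 of 221 cells. These are ratios of summed UMIs, in which deep cells weigh more. The G2 and M list took 0.678% and 0.597% of the summed UMIs of the Ltf class, against 0.217% and 0.207% in its median cell. The upper quartile of Ltf class cells was at 0.841% and 0.495%, so the sums lie well above the median cell of the class. In the summed Fcnb class the list took 0.248% and 0.243%. No median cell of the Fcnb class was taken and these shares were not rescaled, so typical cells of both classes are not compared. The plot of gene lists against the Fcnb class shows both scalings.

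**Figure D2:**
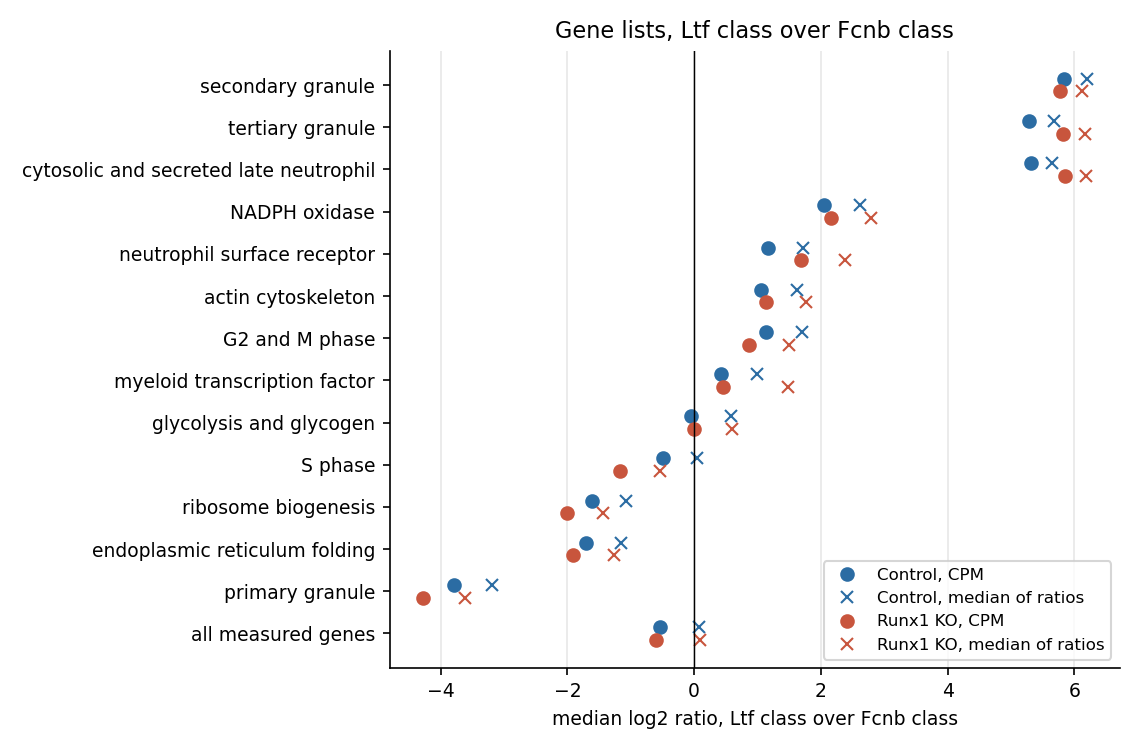
Median log2 ratio of the measured members of each gene list, Ltf class over Fcnb class (x axis), for Control and the library labelled Runx1 KO; circles use CPM and crosses median-of-ratios scaling. Secondary granule genes stand near 5.8 and primary granule genes at -3.79 and -4.28 on the CPM scale, and the crosses lie to the right of the circles for every list.

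The cells of the class were not alike. The secondary granule list took a median of 11% of a Control cell's UMIs (0.168 to 18.7) and 5.78% (0.0736 to 24.6) in the library labelled Runx1 KO. A share of at least 5% was reached by 37 of 50 Control cells (74%, 59.7 to 85.4) and 114 of 221 cells of the other library (51.6%, 44.8 to 58.3), and 3 and 13 cells lay within 1 percentage point of that line, which was drawn after the values were seen. Cells under the line were shallower, with medians of 4492 and 4382 UMIs against 14579 and 13922.5. The late cytosolic and secreted list, which holds S100 genes, Retnlg, Chil3 and several stefins, took a median of 36.1% (3.69 to 50.1) and 35.6% (0.589 to 50.9). Camp without Retnlg was found in 10 Control cells (20%) and 11 cells of the other library (4.98%), and Retnlg without Camp in 7 (14%) and 57 (25.8%). In the plot of cells by the secondary granule and late lists, most cells with a low granule share keep a high late share.

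**Figure D3:**
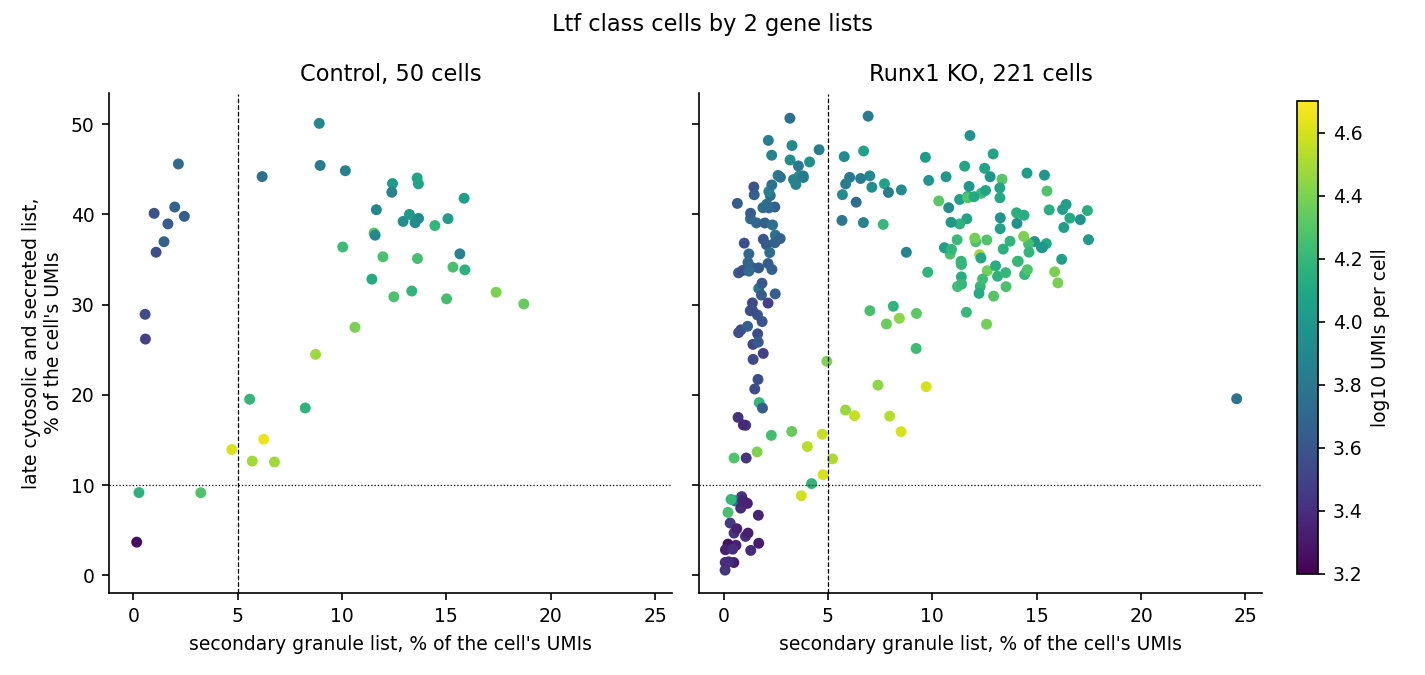
Each point is 1 Ltf class cell; the x axis is the percentage of its UMIs in the secondary granule list, the y axis the percentage in the late cytosolic and secreted list, and the colour the log10 of its UMIs. The dashed line marks 5% and the dotted line 10%; 37 of 50 Control cells and 114 of 221 cells of the library labelled Runx1 KO lie right of the dashed line, and 3 and 26 cells lie below the dotted line.

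Mitotic genes were found mainly in cells with a high granule share. Mki67 had a UMI in 17 of 37 and 66 of 114 cells with at least 5% of UMIs in the secondary granule list, and in 4 of 13 and 11 of 107 cells under 5%, which were shallower. Across cells the share of G2 and M phase UMIs and the depth were correlated (Pearson's r 0.51 over 50 Control cells and 0.55 over 221 cells of the other library). The share of ribosomal protein UMIs and of late list UMIs were inversely correlated (r -0.82 and -0.62), a description in which both shares come from the same total.

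A set of 26 cells in the library labelled Runx1 KO, and 3 in Control, had under 10% of their UMIs in the late list. The 26 had a median of 2462 UMIs, and 21 of them had under 3000. S100a8 stood at 23244 CPM in these 26 cells against 125331 CPM in the other 195, and Camp had a UMI in 5 of 26. Some receptor and late genes of neutrophils were present and others were rarely seen. Csf3r, the receptor of granulocyte colony-stimulating factor, had a UMI in 26 of 26 cells and Cxcr2, the interleukin-8 type chemokine receptor, in 24 of 26. Ly6g had a UMI in 4 of 26 cells (102 CPM), against 128 of the other 195 (322 CPM). Ltf had a UMI in 3 of 26 cells, against 140 of 195. Mmp9 was seen in 24 of 26. Il1b, the gene of interleukin 1 beta, was seen in 21 of 26 at 836 CPM, against 28 of 195 at 58.3 CPM. Fgl2, Gm2a and Ninj1, named here after their values were seen, were found in 24, 20 and 22 of the 26 cells, at 300, 434 and 383 CPM against 31.5, 28.1 and 52.8 CPM. Csf1r, a monocyte receptor, stood at 70.2 CPM in the 26 (8 cells) against 18.3 CPM in the other 195, and at 76.8 CPM in the Ly86 class of that library. Clec4n, a C-type lectin receptor of myeloid cells, stood at 102 CPM (7 cells) against 0.426 CPM, with 94.1% of its 17 UMIs of the class in the 26 cells. Gngt2, Pla2g7 and Tyrobp, also named after their values were seen, stood at 147, 395 and 4644 CPM against 4.68, 51.9 and 2093 CPM. Cx3cr1, a further monocyte receptor, was at 0. What these cells are was not tested.

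Most genes of the class differed by less than 2-fold between the libraries. Of 1996 measured genes, 40 were at least 2-fold higher (2%) and 26 at least 2-fold lower (1.3%) in the library labelled Runx1 KO, and the median log2 ratio was -0.07. The UMI minimum was a sum over both libraries, and the class held fewer UMIs in Control. A gene read mainly in Control could thus need a higher CPM to be measured than one read mainly in the other library. The rule therefore favoured genes higher in the library labelled Runx1 KO, here and in the gene lists below. The size of this effect was not tested. Ltf, Camp, Ngp and S100a8 differed by less than 2-fold, at 0.849, 0.878, 0.689 and 0.939 times the Control level. The genes past 2-fold, shown in the scatter of both libraries, included stefins and interferon-response genes on the higher side and chromatin and primary granule genes on the lower side. With 50 Control cells, 1 cell could carry much of a gene's Control sum. Leaving out the cell with the most UMIs of the gene in each library kept all 12 highest and all 12 lowest ranked genes past 2-fold. For the 12 highest genes this says little of single Control cells, since leaving out the top Control cell mostly raises the ratio. For the 12 lowest it shows that no single Control cell made the 2-fold difference in the sums.

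**Figure D4:**
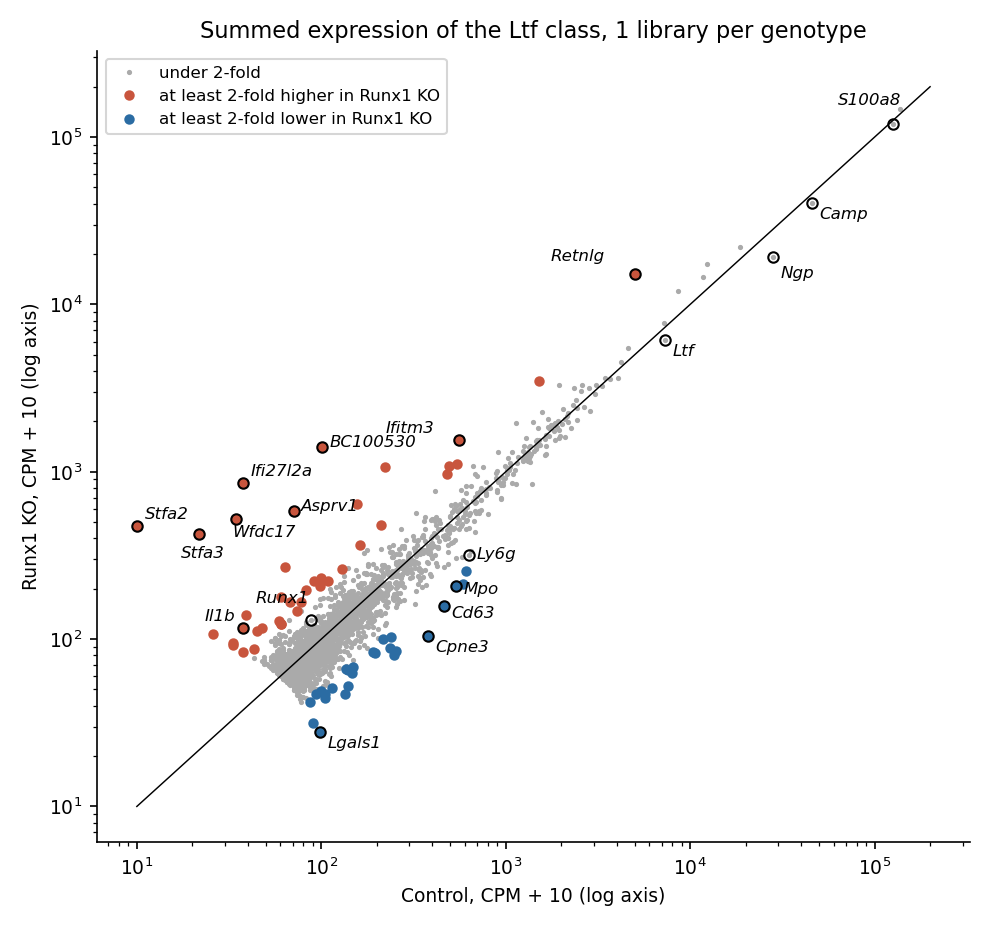
Summed expression of 1996 measured genes in the Ltf class, Control on the x axis and the library labelled Runx1 KO on the y axis, both as CPM plus 10 on log axes; the line marks equal levels. The 40 genes at least 2-fold higher and 26 at least 2-fold lower are coloured, and Retnlg lies off the line among highly expressed genes.

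Late secreted genes were the largest group on the higher side: 7 of 17 measured members of the late cytosolic and secreted list were at least 2-fold higher, 0 were lower, and the list median was 0.50. The list includes stefins, which are described on their own below and are counted in this group. Asprv1, a skin-type aspartic protease also expressed by neutrophils, stood at 60.9 CPM in Control (42 UMIs, 11 of 50 cells) and 577 CPM in the library labelled Runx1 KO (1445 UMIs, 176 of 221 cells), 9.47-fold higher (6.97 to 13.2). Retnlg was 3.02-fold higher (2.91 to 3.12). Wfdc17, a secreted protein with a whey acidic protein domain, stood at 24.6 CPM (17 UMIs, 7 cells) and 510 CPM (1277 UMIs, 111 cells), 20.7-fold higher (12.9 to 35.6). S100a6 stood at 1502 and 3501 CPM, 2.33-fold higher. S100a8 and S100a9 stood at 0.939 and 1.06 times Control.

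The stefins, inhibitors of cysteine cathepsins encoded by near-identical copies on chromosome 16, were read in 18 of 50 Control cells (36%, 22.9 to 50.8) and 159 of 221 cells of the other library (71.9%, 65.5 to 77.8). Together they stood at 462 and 3969 CPM. Stfa2 had 0 UMIs in Control and 1169 UMIs in 56 cells of the library labelled Runx1 KO, at 466 CPM and at least 107-fold higher when Control is set at its floor of 3 UMIs (4.35 CPM). Stfa3 stood at 11.6 and 413 CPM, Stfa2l1 at 146 and 631 CPM, and BC100530 at 91.3 and 1404 CPM, with 68.3% of the Control UMIs of BC100530 in 1 cell. How reads were shared out among the copies could move single stefin values.

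Interferon-response genes formed a second group, with 6 of 26 members measured, 3 at least 2-fold higher, 0 lower and a median of 0.56. Ifi27l2a stood at 27.5 CPM in Control (19 UMIs, 5 of 50 cells) and 844 CPM in the library labelled Runx1 KO (2116 UMIs, 151 of 221 cells), 30.7-fold higher (19.6 to 51.0). Thinned to 2000 UMIs it was seen in 6.12% (1.28 to 16.9) and 54.5% (47.7 to 61.3) of the class. Its share in the Car1 class, which should lack it, was 0.770% and 1.83% after thinning and its level 3.14 and 9.56 CPM. The Ly86 class, named for a monocyte and progenitor gene, had 18 and 116 CPM of Ifi27l2a, and the Fcnb class 0.440 and 1.46 CPM. Ifitm3, an interferon-induced membrane protein that blocks virus entry, stood at 548 and 1532 CPM, 2.80-fold higher (2.52 to 3.12). It was also higher in the Fcnb class (62.5 and 245 CPM), the Ly86 class (256 and 720 CPM) and the Car1 class (189 and 284 CPM). Among classes of at least 20 cells in both libraries, it was lower only in the Pf4 class (607 and 405 CPM) and the Prg2 class (102 and 89.6 CPM). Ifitm2 stood at 471 and 963 CPM. The other 3 measured members stayed under 2-fold, and Sp100 stood at 128 and 94.2 CPM.

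Cytokine and Toll-like receptor genes, which the series title names, were thinly read. Of 21 cytokine and chemokine genes, 4 were measured, 2 of them at least 2-fold higher and 1 lower. Il1b stood at 27.5 CPM in Control (19 UMIs, 6 cells) and 107 CPM in the library labelled Runx1 KO (268 UMIs, 49 cells), 3.88-fold higher (2.44 to 6.55). Of its 268 UMIs, 48.9% lay in the 26 cells with a low late share. Without such cells in either library Il1b stood at 22.9 and 58.3 CPM. Ccl6, a CC chemokine of myeloid cells, stood at 200 and 469 CPM, 2.35-fold higher. Among cells under 5% of UMIs in the secondary granule list, which held 132 of its 138 Control UMIs, Ccl6 was 1.27-fold higher (1.06 to 1.54), so the 2-fold call is not seen within those cells. Among cells with at least 5% it stood at 10.4 and 25.2 CPM, 2.42-fold higher (1.03 to 6.96), on 6 and 44 UMIs. Mif, macrophage migration inhibitory factor, stood at 207 and 90.6 CPM. Of 40 genes of the Toll-like receptor and NF-kB pathway, 4 were measured and 0 were past 2-fold in either direction, with a median of -0.03. Unc93b1, which carries nucleic-acid-sensing Toll-like receptors to endosomes, stood at 49.3 and 88.2 CPM, Nfkbia at 146 and 132 CPM, Nfkb1 at 71.0 and 63.4 CPM and Sod2 at 59.4 and 63.0 CPM. The other 36 were below the minimum and were not counted. Among them, named after their values were seen, Myd88, the adaptor of most Toll-like receptors, stood at 17.4 CPM (12 UMIs) and 40.3 CPM (101 UMIs), Irak3, a brake on the same pathway, at 52.2 CPM (36 UMIs) and 21.5 CPM (54 UMIs), and Cd14, a co-receptor, had 0 and 31 UMIs.

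Other genes on the higher side were spread over several lists. Ceacam10, a secreted member of the carcinoembryonic antigen family, stood at 53.6 and 261 CPM (20 and 139 cells), and Selplg, the P-selectin ligand, at 89.9 and 223 CPM. Junb, a subunit of the AP-1 transcription factor, stood at 29.0 and 129 CPM (15 and 130 cells). Mcl1, a survival protein of the Bcl2 family on which neutrophils depend, stood at 152 and 353 CPM (46 and 210 cells), and Gclm, a subunit of the enzyme for glutathione synthesis, at 50.7 and 170 CPM. Nrgn, neurogranin, also a platelet transcript, stood at 15.9 and 96.6 CPM, with 81.8% of its 11 Control UMIs in 1 cell. The Car1 class held more of it than the Ltf class, with a UMI in 59.2% and 92.4% of cells. In the Ltf class of the library labelled Runx1 KO the 242 UMIs lay in 36 of 221 cells, and 174 of them in 17 cells. The part of free RNA and of mixed cells in this was not tested.

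On the lower side, Cpne3, a calcium-dependent phospholipid-binding copine, had the lowest ratio. It stood at 370 CPM in Control (255 UMIs, 41 of 50 cells) and 95 CPM in the library labelled Runx1 KO (238 UMIs, 100 of 221 cells), 3.89-fold lower. In the Fcnb class it stood at 48.9 and 45.5 CPM. Thinned to 2000 UMIs, Cpne3 was seen in 51.0% (36.3 to 65.6) and 12.7% (8.63 to 17.9) of the class. Zmpste24, the protease that matures lamin A, stood at 238 and 70.6 CPM, and Vcl, vinculin of cell adhesions, at 125 and 37.1 CPM. St3gal5, the synthase of ganglioside GM3, stood at 186 and 72.6 CPM. Lgals1, galectin 1, stood at 88.4 and 18 CPM but rested on 15 Control cells, with 27.9% of its UMIs in 1 of them.

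Chromatin genes were lower as a group: 4 of 15 measured members were at least 2-fold lower, 0 were higher, and the median was -0.39. H2afy, the histone variant macroH2A, stood at 575 and 204 CPM (36 and 131 cells), 2.82-fold lower, Hmgn1 at 79.7 and 21.5 CPM, and the histone gene Hist1h2ap at 600.02 and 245 CPM. G2 and M phase genes were lower by less, with 20 of 21 below 0, 0 past 2-fold and a median of -0.35, and Mki67 at 0.688 times Control. Cells with at least 5% of UMIs in the secondary granule list, in which Mki67 was mostly read, made up 74% and 51.6% of the class, and the part of this in the difference was not tested.

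Primary granule genes had a median of -0.72 over 6 measured members, 2 of them at least 2-fold lower and 0 higher, but this value rested on few cells. Cd63, a tetraspanin of the primary granule membrane, stood at 454 and 147 CPM (42 and 117 cells), 3.08-fold lower. It was lower too in every other class of at least 20 cells in both libraries. Among them were the Fcnb class (958 and 411 CPM), the Gstm1/CD63 class (737 and 383 CPM) and the Car1 class (142 and 81.8 CPM). Mpo stood at 529 and 198 CPM, with 40.5% of its Control UMIs in 1 cell, and Ctsg, cathepsin G, at 312 and 152 CPM. Elane went from -0.45 to 0.16 and Prtn3, proteinase 3, from -0.23 to 0.20 when the cell with the most UMIs was left out of each library. Without cells above 2 times the median UMIs of their class and library the list median was 0.33.

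Secondary granule genes had a median of -0.16 over 11 measured members, with 0 past 2-fold. Their range ran from -0.54 (Ngp) to 0.90, reached by Lrg1, a leucine-rich secreted glycoprotein at 404 and 762 CPM. Olfm4, which marks a subset of neutrophils, was found in 3 of 50 and 12 of 221 cells, at 101 and 189 CPM. Among receptors, 2 of 25 measured members were at least 2-fold higher and 1 lower (median -0.03). Cxcr4, which holds neutrophils in the marrow, stood at 104 and 41.1 CPM (34 and 74 cells), 2.54-fold lower, while Cxcr2, which draws them out, stood at 151 and 197 CPM. Ly6g stood at 625 and 308 CPM (46 and 132 cells), 2.03-fold lower as a plain ratio but not past 2-fold with the pseudocount, and Ly6c2 at 639 and 328 CPM. Of the NADPH oxidase genes 0 of 7 were past 2-fold, with Cybb at 1384 and 832 CPM. Cebpe, the transcription factor of the secondary granule stage, stood at 704 and 556 CPM.

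Since the libraries differed in the share of cells with many secondary granule UMIs, the ranked genes were also read within each kind of cell. The genes had been ranked on the sum of these same cells. Cells with a high granule share held 576916 and 1744757 UMIs, against 113057 and 761541 in the rest. That ranked genes stayed past 2-fold in the former was thus largely set in advance, and the counts are a description only. Among cells with at least 5% of UMIs in that list (37 and 114 cells), 9 of the 12 highest genes and all 12 lowest genes were past 2-fold in the same direction, the exceptions being Nrgn, Junb and Il1b. Among cells under 5% (13 and 107 cells), 9 of the 12 highest and 8 of the 12 lowest were past 2-fold. Vcl and St3gal5 had the opposite sign there, on 2 and 6 Control UMIs. Ifi27l2a was 21-fold higher (10.1 to 52.6) in the first kind and 20.7-fold (11.8 to 40.1) in the second. Asprv1 was 10.7-fold and 5.34-fold higher, and Ifitm3 2.90-fold and 2.35-fold. Of 1875 genes measured among cells with a high granule share, 17 were at least 2-fold higher and 26 lower. In the whole class the counts were 40 and 26 of 1996. The same count among the other cells is not given. Retnlg was 3.23-fold higher among cells with a high granule share and 1.72-fold among the rest, and Cpne3 3.57-fold and 4.04-fold lower. Ltf and Camp were at 0.995 and 1.04 times Control among cells with a high granule share. Il1b had 0 Control UMIs and 10 UMIs in the other library among those cells. Among the rest it stood at 168 and 339 CPM, 2.02-fold higher (1.26 to 3.40) and under 2-fold with the pseudocount, against 3.88-fold in the whole class. S100a6 (1.88-fold and 1.68-fold), Mcl1 (1.77-fold and 1.96-fold) and Ifitm2 (1.93-fold and 1.67-fold), past 2-fold in the whole class, were under 2-fold in each kind of cell. The plot of ranked genes gives both kinds of cell side by side.

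**Figure D5:**
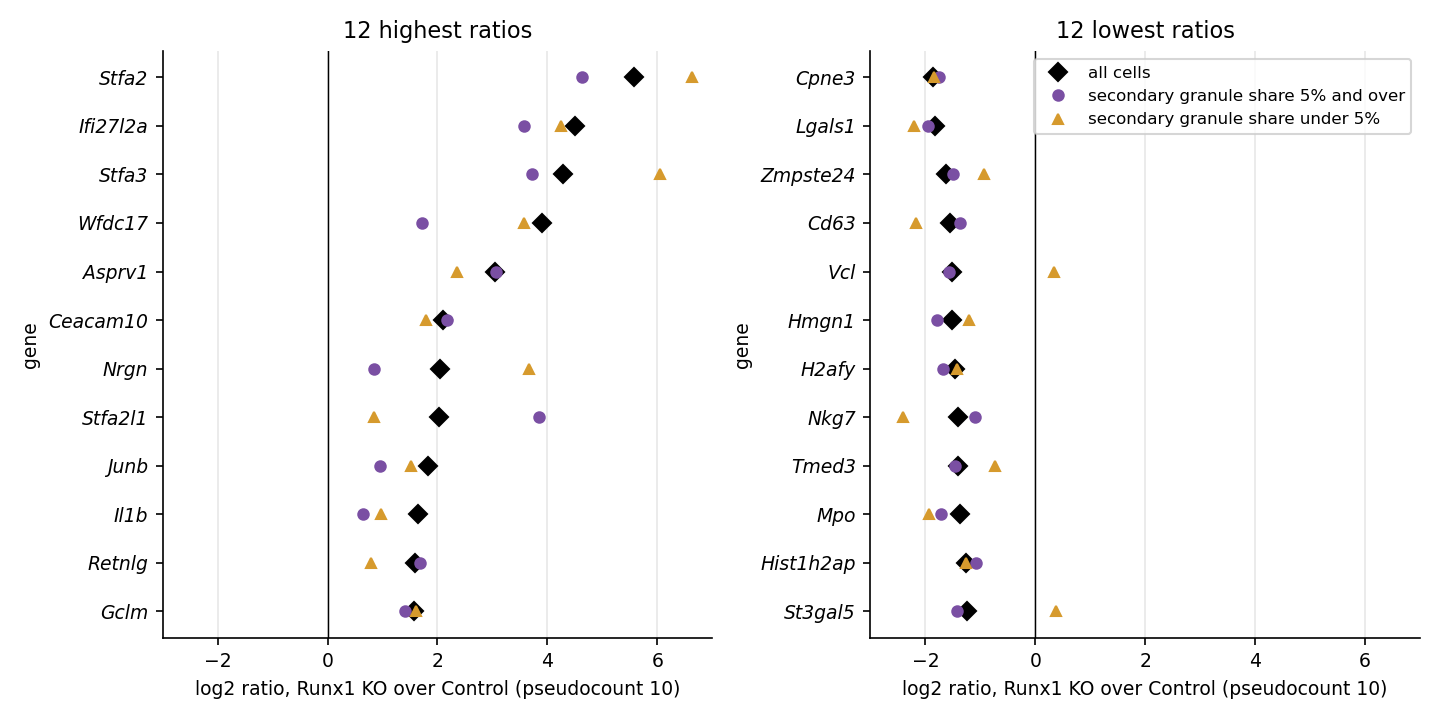
Log2 ratio of the library labelled Runx1 KO over Control (x axis, pseudocount 10 CPM) for the 12 highest and 12 lowest genes of the Ltf class, in all cells (diamonds), in cells with at least 5% of UMIs in the secondary granule list (circles) and in cells under 5% (triangles). Ifi27l2a stands at 4.51 in all cells, 3.58 and 4.25; Vcl is at -1.52 in all cells and 0.34 among cells under 5%.

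Markers of other cell types were read in the class at a part of their own class's level. Megakaryocyte markers (6 genes) summed to 159 and 397 CPM, against 6018 and 6017 CPM in the Pf4 class, and Gp1bb, Gp9 and Ppbp were at 0 in Control. In 1 Control cell and 7 cells of the other library they reached at least 0.5 times the median cell of the Pf4 class. Erythroid markers (8 genes) summed to 39.1 and 92.2 CPM, with the 4 globins at 0 in Control, and monocyte markers (7 genes) to 24.6 and 54.7 CPM, with Cx3cr1 at 0 in both. The sums were 43.5 and 23.9 CPM for macrophage, 37.7 and 54.3 for basophil and mast cell, 60.9 and 2.39 for eosinophil, 42 and 10.4 for dendritic, 18.8 and 7.58 for B lineage, 167 and 48.7 for T and NK cell, and 138 and 58.7 for multipotent progenitor markers. Of the T and NK cell sum, Nkg7 gave 130 and 42.7 CPM, and it stood at 1108 and 960 CPM in the Fcnb class. Cd3d gave 36.2 and 5.98 CPM, and Cd3e, Trbc2 and Ccl5 were at 0 in both libraries. Neutrophil progenitor markers (6 genes) summed to 2373 and 1511 CPM against 26705 and 24713 CPM in the Gstm1/CD63 class, and reached 0.5 times that class's median in 1 and 3 cells. The multipotent progenitor sum was 19.6% and 8.73% of that of the CD34 class (702 and 672 CPM), with 6 and 3 cells at 0.5 times its median or more. Erythroid markers reached this line in 0 and 4 cells, monocyte markers in 0 and 2, and basophil and mast cell markers in 0 and 1. Over the 10 lists other than multipotent progenitor and late neutrophil, 2 and 16 cells reached 0.5 times the median of another class; the multipotent cells were kept. Without those 2 and 16 cells, 1933 genes were measured, of which 44 were at least 2-fold higher and 48 lower. With all cells, 26 of 1996 were lower. No caller of doublets was run, and the 7 and 36 cells with over 2 times the median UMIs of the class were kept. Without them the counts were 57 and 34 of 1797 measured genes.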

How the data were processed

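The deposited matrix holds counts, UMIs per gene and cell, for 31053 genes. Per the submitters' processing notes Cell Ranger and the mm10 build were used, with versions and settings not stated there. The deposited cell annotation adds UMIs and detected genes per cell, the mitochondrial fraction, a size factor that is a ratio, and other fields with library and class names; how the authors assigned the classes is not recorded in the labels. The lowest number of genes in a deposited cell was 1000. The library named WT in the annotation was taken as Control. Columns of other samples numbered 0.

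UMIs were summed per class and library and scaled to CPM with Python 3.11.15, numpy 2.4.6, scipy 1.17.1 and pandas 2.3.3. Measured genes had a mean of at least 50 CPM and 100 UMIs over both sides, log2 ratios used a pseudocount of 10 CPM, and 2-fold set the counts. Thinning dropped cells below the target. The arithmetic was tested on simulated data. Named genes were the 5 markers, Runx1, the 12 highest and 12 lowest ratios between libraries, over the Fcnb class and over all other classes, and, per list, up to 4 members with the largest ratios and up to 4 with the highest levels; other genes named were chosen after their values were seen. Clone-named, sex-linked and mitochondrial genes were left out of rankings. The members, the 25 gene lists and the 12 marker lists were chosen with earlier results of these data known. Of the identifiers, 30934 matched GENCODE M21; promoters are from RefSeq (GRCm38.p6). Alternatives changed the pseudocount, minimum, scaling, cells kept and thinning.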

Additional observations from a re-analysis of the deposited data

How the results depend on the processing

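No paired analysis was possible because each genotype had 1 library. The cause of the shifts below was not tested, except that higher minimums and thinning leave fewer genes to count. In the main setting 40 of 1996 measured genes were higher and 26 lower in the library labelled Runx1 KO. Of the same 1996, a pseudocount of 1 gave 42 lower, and a pseudocount of 50 gave 18 and 10. No minimum gave 111 and 94 of 12754 genes, and a minimum of 200 CPM 16 and 5 of 462. Leaving out the 20 most abundant genes gave 72 higher of 2980, and the mean of per-cell CPM 70 higher of 1963. Thinning to 2000 UMIs gave 6 lower of 537. Since the totals differ, these counts do not compare as shares. Some choices of cells were added after seeing the data. Cells with at least 5% secondary granule UMIs gave 17 higher of 1875, and leaving out cells with another class's markers gave 48 lower of 1933. Over the Fcnb class, no minimum gave 700 higher and 1307 lower in Control and 655 and 1538 in the other library, among more genes than in the main setting. Leaving out the 20 most abundant genes gave 636 and 268 of 3122, and 713 and 403 of 3058. Median-of-ratios scaling gave 499 and 219 of 2321, and 545 and 310 of 2266. The class was 4.32% and 16.6% of the 4 neutrophil-lineage classes.

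Of list medians between libraries, the primary granule value was 0.33 without the deepest cells, -1.01 with high-granule cells, -1.08 without cells of other markers and -1.10 with cells of at least 10% late UMIs. The secondary granule value was -0.082 with median-of-ratios scaling, -0.43 by per-cell means, -0.24 without the deepest cells and 0.056 with high-granule cells. The late secreted value was 0.32 by per-cell means. The interferon value was 1.06 without the 20 most abundant genes, 1.14 by per-cell means and 1.28 without the deepest cells, and the G2 and M value then -0.67. Receptors turned to 0.095 with no minimum, 0.31 without the 20 most abundant genes, 0.15 by per-cell means and 0.32 without the deepest cells. Transcription factors turned to -0.27 with no minimum, and tertiary granule genes to 0.10 without the 20 most abundant genes. S phase genes turned to 0.043 by per-cell means and 0.10 without the deepest cells. Cytokines turned to -0.091 with at least 10% late UMIs, -0.82 with high-granule cells and -0.14 in cells of at least 5000 UMIs. For 29 single genes under 14 settings, 325 of 406 values moved within their interval and 81 moved further. Where a gene had no finite interval, as Stfa2, a fixed width was used instead. A change of sign was counted only for genes at least 2-fold apart in the main setting, and of those 0 reversed. Smaller ratios could change sign without being counted. Camp and S100a8, lower in the library labelled Runx1 KO over all cells, stood at 1.04 and 1.00 times Control among high-granule cells.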

Other observations

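Several gene groups of the Ltf class were not set side by side between the libraries above. Of 27 measured actin cytoskeleton genes, 0 were at least 2-fold higher and 1 lower in the library labelled Runx1 KO, with a median of 0.00; Tmsb10, a thymosin that binds actin monomers, was the lower one at 229 and 93.4 CPM (Control first), and Capg, an actin-capping protein, stood at 159 and 315 CPM. Of 16 glycolysis genes, 0 passed 2-fold (median -0.10), with Pgam1 at 359 and 199.5 CPM and Gapdh at 1020 and 1199 CPM. Of 83 measured cytosolic ribosomal protein genes, 0 passed 2-fold (median -0.08). Ribosome biogenesis genes lay lower (6 of 7 below 0, median -0.52, 0 past 2-fold). Among transcription factors, Id2, an inhibitor of E proteins, stood at 139 and 57.9 CPM, while Spi1, which encodes PU.1, stood at 409 and 515 CPM. Btg1, an antiproliferative factor, stood at 119 and 254 CPM. Among cells with at least 5% of UMIs in the secondary granule list Btg1 stood at 83.2 and 65.9 CPM, the opposite direction, and among the rest at 301 and 685 CPM. Medians of the remaining lists between the libraries were -0.81 for 5 progenitor genes, -0.08 for 4 tertiary granule, 0.14 for 16 transcription factor, -0.31 for 10 S phase, 0.04 for 6 cell cycle exit and -0.08 for 6 nuclear envelope genes. They were 0.86 for 3 survival and death genes, 0.09 for 2 genes of cytokine signal feedback, -0.21 for 12 folding, 0.32 for 5 immediate early and heat shock, -0.04 for 15 cathepsin and lysosome, 0.46 for 5 lipid mediator and -0.06 for 11 mitochondrially encoded genes. In these lists at most 1 gene was past 2-fold in either direction. These are values of 1 library per genotype.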
